A study of Mus musculus with 60 samples.

Results

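The colon of mice with collagen induced arthritis (CIA) was sampled around the clock, and the transcripts that rose and fell once a day are described here by the time of their peak. The data are the 30 CIA libraries among the 60 colon libraries of the series, with 5 mice at each of 6 times, every 4 h from ZT0 to ZT20, and no library of a naïve mouse enters. All mice were male, of the DBA/1 strain and 9 to 10 weeks old when they first received bovine type II collagen in complete Freund's adjuvant through the skin. A boost of collagen into the peritoneal cavity followed on day 21, and both doses were given at ZT6. The animals fed freely on chow and shared cages with naïve mice, with lights on at ZT0 and off at ZT12. Colons were taken 7 days after symptoms appeared. Each mouse was sampled at 1 time and gave 1 library from a 5 mm piece of whole mid-colon, so a rhythm here is a pattern across mice, and all 6 groups carry the same immunisation and disease.

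Mammalian cells keep time with a transcriptional loop. The activators BMAL1 (encoded by Arntl) and CLOCK or NPAS2 bind E-box sequences and drive the period and cryptochrome genes, whose products repress them in turn. The same activators drive the nuclear receptors REV-ERBα and REV-ERBβ (Nr1d1 and Nr1d2), which repress Arntl through ROR elements, and the D-box activators Dbp, Tef and Hlf. In the gut this loop runs in epithelium and in the wall beneath it, beside daily cues from feeding, body temperature, glucocorticoids and the microbiota, and epithelial cells of the crypts divide with a daily rhythm.

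For each gene, a 24 h cosine and sine were fitted to log2 CPM (counts per 1e+06 counts of a library) of the 30 libraries. Amplitude is the size of the fitted difference between peak and mean on the log2 scale, so that an amplitude of 1 is a 4-fold difference between peak and trough. The peak is the ZT hour of the fitted maximum, and errors of both are standard errors (SE). The deposited table held counts for 27179 genes, and 17658 passed the filter on low counts. Total counts were 31382664 to 57564488 per library with a median of 45528580. A gene was called rhythmic at an adjusted p under 0.05 in edgeR's quasi-likelihood F test of both 24 h terms, adjusted over all genes tested. Behind gene names, amplitude and peak stand in parentheses. Rankings by amplitude within a window cover called genes whose mean reached 10 CPM and leave out predicted genes.

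Markers of colonocytes, goblet cells and smooth muscle were all detected, as a section of colon wall would hold. Smooth muscle markers summed to between 17902 and 59526 CPM, with medians of the time points between 31285 and 42787 CPM and overlapping ranges. Colonocyte markers summed to 22439 to 25189 CPM at ZT0, below 27254 to 29955 CPM at ZT8 and 26293 to 35284 CPM at ZT16. Their ranges at ZT4, ZT12 and ZT20 overlapped that at ZT0, and these sums were not tested. From the clock genes of the other 29 mice, 27 of 30 libraries gave an hour within 2 h of their label. CIA ZT4 replicate 4 gave an hour 3.4 h before its label, CIA ZT16 replicate 1 gave 2.1 h before and CIA ZT0 replicate 2 gave 2.1 h after it. CIA ZT12 replicate 2 held 635 CPM of skeletal muscle markers, against at most 77.9 CPM in any other library. Without CIA ZT4 replicate 4, CIA ZT12 replicate 2 and CIA ZT16 replicate 1, 5688 genes were called.

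With all libraries 5610 of 17658 genes (31.8%) were called. Their peaks lay in 2 broad waves, one in the second part of the light phase and one in the second part of the dark phase. The hour from ZT7 held the most peaks, 380, the hour from ZT19 held 324, and the fewest, 123, fell in the hour from ZT1. By 4 h window, 575 genes (3.26% of those tested) peaked from ZT0 to ZT4, 1173 (6.64%) from ZT4 to ZT8 and 1090 (6.17%) from ZT8 to ZT12. In the dark phase 645 (3.65%) peaked from ZT12 to ZT16, 1070 (6.06%) from ZT16 to ZT20 and 1057 (5.99%) from ZT20 to ZT24. Most rhythms were shallow, with a median amplitude of 0.22 among called genes, and 850 genes (4.81%) had an amplitude of at least 0.5. These deeper rhythms were spread differently from the waves: they made up 31.5% of the called genes that peaked from ZT0 to ZT4, but 7.44% of those from ZT12 to ZT16 and 6.82% of those from ZT16 to ZT20. Expression also differed by window. The median of the called genes' mean CPM was lowest from ZT0 to ZT4, at 12.1 CPM. It was 55.5 CPM from ZT12 to ZT16 and 40.2 CPM from ZT16 to ZT20. Whether the share of deeper rhythms follows expression level was not tested. A 12 h component, tested beside the 24 h terms, was called in 0 genes by edgeR and by limma-trend and in 2 by DESeq2, and 814 genes had an unadjusted p under 0.05 in edgeR.

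**Figure D1:**
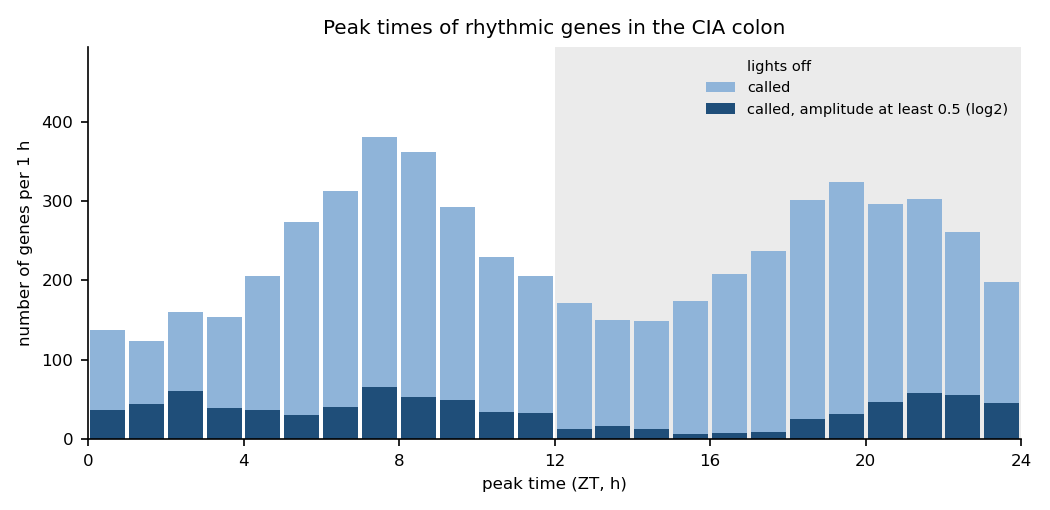
Number of called genes by peak time in 1 h bins (horizontal axis, ZT hours; vertical axis, genes), with the genes of amplitude at least 0.5 in dark blue and the lights-off phase shaded. The tallest bins are the hour from ZT7 with 380 genes and, in the dark phase, the hour from ZT19 with 324.

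The core clock list held 19 genes, and 18 of 19 were called, beside 31.8% of all genes. In order of peak they ran from Npas2 (ZT0.22 ± 0.47 h) through Nr1d1 (ZT7.7 ± 0.25 h), Bhlhe41 (ZT9.6), Nr1d2 (ZT10.0), Dbp (ZT10.1 ± 0.25 h), Ciart (ZT11.0 ± 0.28 h), Per1 (ZT11.3), Per3 (ZT11.6), Tef (ZT11.7) and Hlf (ZT12.2). After lights off came Bhlhe40 (ZT12.9), Cry2 (ZT14.0), Per2 (ZT14.3 ± 0.18 h) and Cry1 (ZT19.1 ± 0.4 h), then Nfil3 (ZT21.9) and Arntl (ZT23.1 ± 0.26 h). Ciart, a repressor of the activator pair, had the deepest rhythm of the list, with an amplitude of 3.02 ± 0.22. Clock itself was shallow (0.15 ± 0.046, ZT23.2, adjusted p = 0.0358), and its call held in 19 of 30 runs that left out 1 library, with an adjusted p of up to 0.0688 without CIA ZT12 replicate 1 and of 0.0831 without the 3 libraries named above. Rora, at a mean of 0.648 CPM, was not called (amplitude 0.29 ± 0.18, adjusted p = 0.42). Neighbours in this order such as Nr1d2 and Dbp, or Per3 and Tef, differ by less than their SE. Leaving out any 1 of ZT0, ZT4 and ZT12 ended the call of Clock (adjusted p of up to 0.236, without ZT12).

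The promoters of 6 clock genes are shown because their peak times fall on different sides of the loop and because the window holds a letter match to a motif of the loop. The sequences are RefSeq's, on GRCm38.p6, from 250 bases before to 50 after the annotated start, with the matched letters in capitals. Ciart (chr3:95882179-95882478, minus strand), Per1 (chr11:69098699-69098998, plus strand) and Cry1 (chr10:85185005-85185304, minus strand) are shown for the E-box CACGTG, which Ciart holds at 3 places, and Per3 (chr4:151044616-151044915, minus strand) for 2 copies of the D-box letters TTATGTAA. Arntl (chr7:113207261-113207560, plus strand) and Nfil3 (chr13:52980990-52981289, minus strand) are shown for the ROR element half-site TAGGTCA, which in Nfil3 reads on the opposite strand.
Ciart: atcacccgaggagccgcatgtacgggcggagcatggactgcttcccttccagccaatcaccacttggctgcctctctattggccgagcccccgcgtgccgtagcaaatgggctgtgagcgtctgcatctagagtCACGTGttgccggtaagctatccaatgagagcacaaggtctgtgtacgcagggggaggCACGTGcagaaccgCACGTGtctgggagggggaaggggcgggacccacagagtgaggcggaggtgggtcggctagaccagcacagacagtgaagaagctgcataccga
Per1: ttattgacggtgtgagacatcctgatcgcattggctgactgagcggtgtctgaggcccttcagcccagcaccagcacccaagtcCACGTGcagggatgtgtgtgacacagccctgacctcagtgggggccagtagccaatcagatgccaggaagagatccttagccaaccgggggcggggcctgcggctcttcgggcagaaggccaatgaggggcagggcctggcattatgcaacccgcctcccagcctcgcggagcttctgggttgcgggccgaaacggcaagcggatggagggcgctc
Cry1: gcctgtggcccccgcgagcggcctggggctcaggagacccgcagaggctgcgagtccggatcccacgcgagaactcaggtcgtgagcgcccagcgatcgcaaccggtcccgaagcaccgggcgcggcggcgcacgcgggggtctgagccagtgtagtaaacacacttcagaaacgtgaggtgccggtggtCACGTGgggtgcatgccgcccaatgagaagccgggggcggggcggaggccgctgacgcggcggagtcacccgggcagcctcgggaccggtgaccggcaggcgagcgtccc
Per3: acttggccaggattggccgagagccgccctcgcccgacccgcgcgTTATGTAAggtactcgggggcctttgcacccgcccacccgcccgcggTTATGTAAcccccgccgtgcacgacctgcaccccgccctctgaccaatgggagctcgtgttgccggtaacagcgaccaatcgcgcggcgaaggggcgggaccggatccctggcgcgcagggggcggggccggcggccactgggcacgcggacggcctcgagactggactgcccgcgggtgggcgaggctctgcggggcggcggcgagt
Arntl: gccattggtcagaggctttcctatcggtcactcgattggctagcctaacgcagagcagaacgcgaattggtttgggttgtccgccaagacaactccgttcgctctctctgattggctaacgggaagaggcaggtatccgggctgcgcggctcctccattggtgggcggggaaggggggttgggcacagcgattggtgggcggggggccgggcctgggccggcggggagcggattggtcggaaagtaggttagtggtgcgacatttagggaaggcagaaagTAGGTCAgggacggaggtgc
Nfil3: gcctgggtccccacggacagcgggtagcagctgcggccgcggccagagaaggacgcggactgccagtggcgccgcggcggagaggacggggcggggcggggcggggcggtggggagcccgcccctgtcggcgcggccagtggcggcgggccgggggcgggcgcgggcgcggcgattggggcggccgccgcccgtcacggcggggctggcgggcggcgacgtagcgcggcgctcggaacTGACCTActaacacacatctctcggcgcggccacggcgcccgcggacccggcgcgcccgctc
The letters were searched on both strands, the D-box also as TTACGTAA, TTACATAA and TTATATAA and the half-site also as TGGGTCA. Of all 32851 promoters in the RefSeq table, 7.15% hold the E-box, 1.59% a D-box and 6.45% a half-site. Among promoters of called clock genes the E-box stood in 6 of 20, where a gene can have more than 1 promoter, as Tef does. Half-site letters stood only in the promoters shown of Arntl and Nfil3, and D-box letters only in that of Per3. Dbp and Nr1d1 have no E-box letters in this window.

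The clock genes with the deepest rhythms separated the time points mouse by mouse. Ciart stood at 0.766, 0.993, 0.372, 0.528 and 0.582 CPM in the 5 mice at ZT0 and at 35.2, 27.7, 25.6, 66.6 and 57.6 CPM in the 5 mice at ZT12. All mice at ZT12 lay above all mice at ZT0, and Arntl ran in reverse. Arntl read 65.2, 59.8, 89.2, 67.0 and 71.8 CPM at ZT0 and 8.95, 4.96, 10.9, 8.50 and 9.25 CPM at ZT12, again with no overlap. Its means were 70.6 ± 11.2 CPM at ZT0 and 8.51 ± 2.18 CPM at ZT12 (SD, n = 5), and the fit gave an amplitude of 1.62 ± 0.11 with an adjusted p of 8.30e-11. Among the 5 mice at ZT4, the mouse with the early clock hour, replicate 4, stood at 71.2 CPM of Arntl while the others lay between 28.6 and 41.1 CPM.

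**Figure D2:**
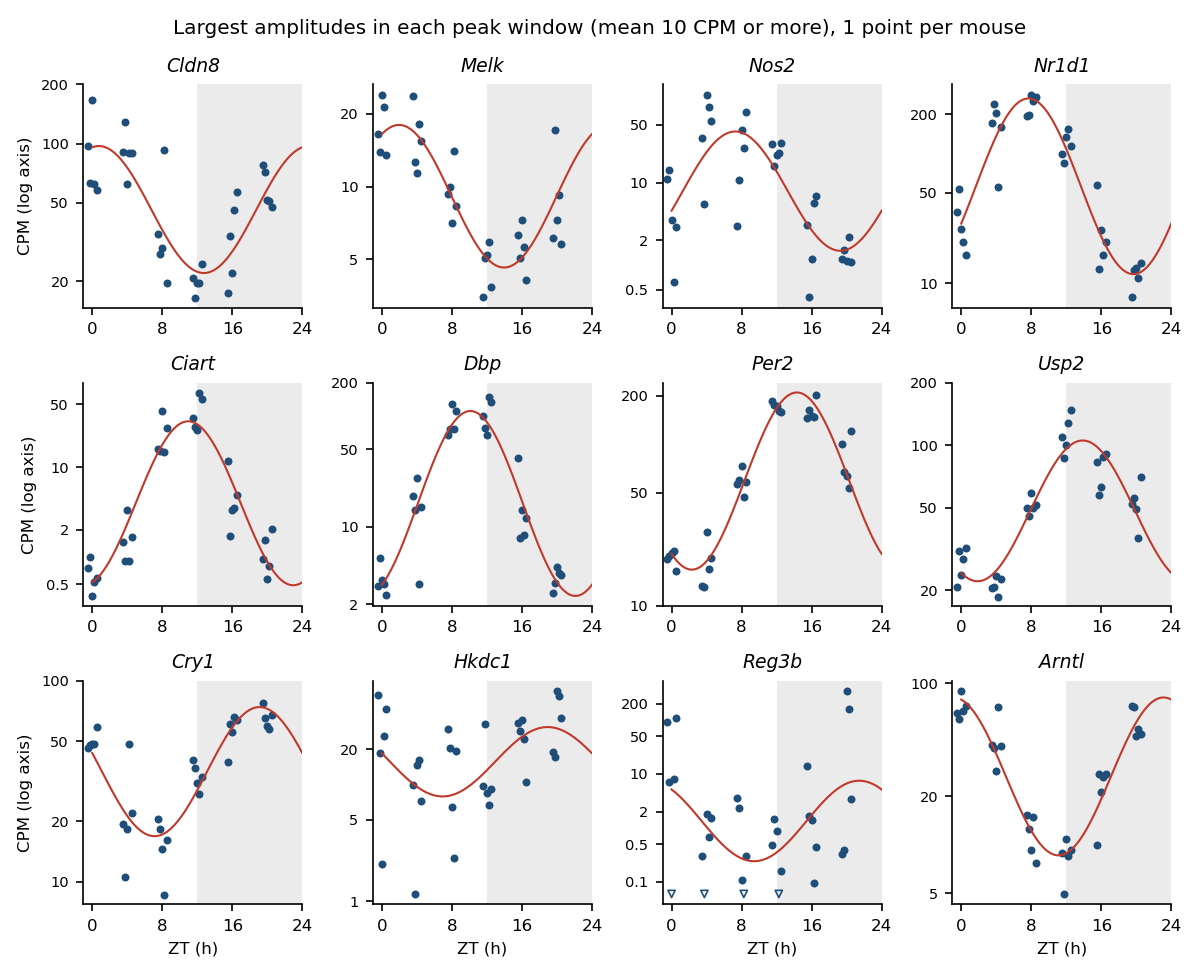
CPM (vertical axes, log scale) by ZT hour (horizontal axes) for the 2 genes of largest amplitude in each peak window among called genes whose mean reached 10 CPM, 1 point per mouse and 5 mice per time, with the fitted 24 h curve in red and lights off shaded; open triangles stand for mice at 0 CPM. Clock genes such as Per2, Arntl and Nr1d1 follow the curve closely, while Nos2, Hkdc1 and Reg3b scatter widely within a time point.

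From ZT0 to ZT4, the start of the light phase, mitosis genes peaked together. The mitosis list holds cyclins, spindle kinases, kinesins and kinetochore proteins, and 40 of 40 members tested were called, beside 31.8% of all genes. Of these 38 peaked in this window, which held 3.26% of all genes, and 2 in the next. Their median amplitude was 0.83, against 0.22 over all called genes and 0.15 over all genes tested, and their mean peak was ZT2.4. Among the largest rhythms of the window, where the mean reached 10 CPM, were Melk (0.98 ± 0.11, ZT2.0 ± 0.41 h), a kinase of dividing cells, Top2a (0.96 ± 0.11, ZT1.4 ± 0.45 h), the topoisomerase that untangles replicated DNA, Nusap1 (0.96 ± 0.098, ZT2.9 ± 0.39 h), a spindle protein, and Pbk (0.95 ± 0.13, ZT1.2 ± 0.51 h), a mitotic kinase. Within the list the order ran from Mad2l1 (ZT1.4), Aurkb (ZT1.4) and Top2a over Kif11 (ZT1.8), Cdk1 (ZT1.8) and Aurka (ZT2.2) to Ccnb1 (ZT3.2), Ccnb2 (ZT3.6), Cenpa (ZT3.9), Cenpf (ZT4.0) and Cdc25b (ZT4.9). In whole tissue, fewer dividing cells and less of these transcripts per cell cannot be told apart.

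Ccnb2, cyclin B2, shows the rhythm in single mice. It stood at 30.8, 19.7, 14.6, 22.3 and 22.3 CPM at ZT4 and at 9.58, 5.26, 7.39, 7.93 and 4.83 CPM at ZT16, and the groups did not overlap. Means were 21.9 ± 5.87 CPM at ZT4 and 7.00 ± 1.96 CPM at ZT16 (SD, n = 5), with an amplitude of 0.89 ± 0.11 and an adjusted p of 1.88e-06. Melk read 16.6, 13.9, 23.99, 21.3 and 13.6 CPM at ZT0 against 3.48, 5.09, 5.20, 5.91 and 3.84 CPM at ZT12, also without overlap. The promoter of Ccnb2 (chr9:70421505-70421804, minus strand) is shown because it carries the CCAAT box at 3 places, which begin at positions -87, -54 and -21 from the gene's start, at even spacing.
Ccnb2: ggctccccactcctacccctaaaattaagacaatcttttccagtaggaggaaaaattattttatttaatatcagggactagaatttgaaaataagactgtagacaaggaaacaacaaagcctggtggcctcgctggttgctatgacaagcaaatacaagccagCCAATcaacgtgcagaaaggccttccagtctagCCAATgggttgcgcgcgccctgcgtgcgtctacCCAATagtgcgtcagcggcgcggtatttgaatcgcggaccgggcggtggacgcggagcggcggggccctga
At least 1 CCAAT in either direction stood in 77.8% of the 36 promoters of called mitosis members, in 47.9% of promoters of called genes with a peak from ZT0 to ZT4, in 37.2% of promoters of genes tested and in 37.4% of all promoters in the table.

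Where the mean reached 10 CPM, the largest amplitude of the window was not that of a mitosis gene but of Cldn8, a claudin that seals the junctions of the distal colon (gene 54420, chromosome 16, 88560826 to 88563183 on GRCm38). Cldn8 stood at 97.5, 63.2, 168, 62.4 and 58.2 CPM at ZT0 and at 20.8, 16.5, 19.6, 19.7 and 24.4 CPM at ZT12. Every mouse at ZT0 lay above every mouse at ZT12, and mice at ZT4 were as high, with values of 90.3, 129, 62.4, 89.5 and 89.8 CPM. Its amplitude was 1.07 ± 0.15 with a peak at ZT0.75 ± 0.52 h and an adjusted p of 1.59e-05. Fabp7, a fatty acid binding protein of glia, lay below that limit (mean 0.551 CPM) and had a larger amplitude (1.53 ± 0.17, ZT0.56 ± 0.43 h, adjusted p = 1.09e-06). It read 0.867, 1.07, 1.24, 0.746 and 1.84 CPM at ZT0 and 0.143, 0.167, 0.179, 0.0985 and 0.0791 CPM at ZT12.

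Fat oxidation genes peaked across the day, with 19 of 30 tested called, beside 31.8% of all genes. Of these, 5 fell in this window. They were Pdk4 (0.67, ZT0.63), which turns cells from glucose to fat, Angptl4 (1.10, ZT2.5), an inhibitor of lipoprotein lipase, Acot1 (0.69, ZT3.1), Acaa2 (0.20, ZT1.9) and Acadm (0.11, ZT3.7). Acadl (ZT4.9), Cpt1a (ZT5.8), the gate of mitochondrial fat entry, and the carnitine carrier Slc25a20 (0.48 ± 0.078, ZT7.5 ± 0.62 h) followed in the next window. The receptor Ppara peaked in the dark phase (ZT17.4, 0.36). Without the ZT12 mice 12 members of this list were called. Leaving out 1 time ended the call of Pdk4 (adjusted p = 0.0869 without ZT0), Angptl4 (adjusted p = 0.0856 without ZT12), Acaa2 (adjusted p = 0.152 without ZT12) and Acadm (adjusted p = 0.288 without ZT4).

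From ZT4 to ZT8, the middle of the light phase, 1173 genes peaked, the most of any window. The largest amplitude belonged to Nos2, the inducible nitric oxide synthase (gene 18126, chromosome 11, 78920787 to 78960226), at 2.40 ± 0.39 with a peak at ZT7.3 ± 0.62 h and an adjusted p of 1.52e-05. Its 5 mice at ZT4 stood at 34.3, 5.42, 116, 81.9 and 55.02 CPM, those at ZT8 at 2.99, 10.7, 42.8, 25.9 and 71.6 CPM and those at ZT20 at 1.18, 1.51, 1.13, 2.16 and 1.09 CPM. Every mouse at ZT4 and ZT8 lay above every mouse at ZT20, but the mice within ZT8 ranged from 2.99 to 71.6 CPM. Nr1d1 followed with 2.25 ± 0.15 (ZT7.7 ± 0.25 h) and values of 193, 198, 284, 253 and 272 CPM at ZT8 and 7.77, 12.7, 13.2, 10.96 and 14.3 CPM at ZT20. Here mice within a time point were close and the groups lay far apart.

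Slc37a2, a sugar phosphate carrier, had a fitted amplitude of 2.09 ± 0.61 (ZT7.5 ± 1.1 h, adjusted p = 0.0267), but its mice fell into a high and a low set within time points. It stood at 3.57, 5.06, 220.4, 406 and 23.5 CPM at ZT8 and at 12.4, 20.3, 2.40, 1.65 and 3.67 CPM at ZT20. Over the day 11 of 30 mice lay above 101 CPM and the others at or under 28.7 CPM. High mice were found at ZT0, ZT4, ZT8 and ZT12 and none at ZT16 or ZT20, and without CIA ZT4 replicate 2 the adjusted p was 0.0528. Mt2, a metallothionein (1.38 ± 0.26, ZT7.0 ± 0.71 h), and Edn1, the vasoconstrictor endothelin (1.34 ± 0.18, ZT5.7 ± 0.5 h), were the other two of the 5 largest where the mean reached 10 CPM. Removing any 1 of ZT4, ZT16 and ZT20 ended the call of Slc37a2 (adjusted p of up to 0.307, without ZT20).

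Some epithelial defence and cytokine genes peaked at this time. Epithelial antimicrobial defence genes were called in 10 of 20, beside 31.8% of all genes, and in 7 without CIA ZT8 replicate 4. Of the 10, 2 peaked from ZT4 to ZT8, 5 from ZT8 to ZT12 and 3 from ZT20 to ZT24. Those windows held 6.64%, 6.17% and 5.99% of all genes. Chemokine and cytokine genes were called in 8 of 25, a share close to the 31.8% of all genes, and 5 peaked from ZT4 to ZT8, as did 6.64% of all genes, namely Cxcl10 (ZT4.6, 0.76), Il18 (ZT6.1, 0.71), Tnf (ZT6.3, 0.84), Ccl20 (ZT6.4, 1.21) and Ccl28 (ZT7.1, 0.57). Without the ZT20 mice, 5 of the list were called. Ccl20, which draws CCR6 bearing lymphocytes to the epithelium, read 10.1, 31.2, 13.5, 26.9 and 17.5 CPM at ZT4, 2.74, 5.30, 19.3, 79.1 and 10.9 CPM at ZT8 and 6.40, 6.02, 1.80, 2.90 and 4.11 CPM at ZT20. All ZT4 mice exceeded all ZT20 mice, while the ZT8 mice reached from among the ZT20 mice to the highest value of all 30, 79.1 CPM. The adjusted p was 0.000331. Duoxa2, the maturation factor of the hydrogen peroxide producing oxidase DUOX2, peaked at ZT7.4 ± 0.7 h (1.07 ± 0.20, adjusted p = 0.000108), and Duox2 at ZT8.4 (0.60). The pattern recognition list gave 11 of 26, beside 31.8% of all genes, with 4 peaks here and 4 from ZT8 to ZT12. Among them were Tlr2 (ZT4.7) and the NF-κB brakes Nfkbia (ZT6.6 ± 0.61 h, 0.49 ± 0.078) and Tnfaip3 (ZT8.7 ± 0.68 h, 0.62 ± 0.11), and without the ZT20 mice 7 of the list were called. Macrophage markers were called in 3 of 18, beside 31.8% of all genes, with peaks from ZT21.7 through lights on to ZT1.1 (5 without CIA ZT12 replicate 2). B cell markers were called in 0 of 15 by edgeR, limma-trend and DESeq2, with none at an unadjusted p under 0.05 in edgeR. Their median amplitude was 0.43, against 0.15 over all genes tested. Their sums ran from 20.3 to 771 CPM between mice, with medians of 30.7 CPM at ZT0 and 215 CPM at ZT4, and were not tested. For Ccl28 (adjusted p = 0.0712 without ZT20) and Duox2 (adjusted p = 0.0518 without ZT20), removal of 1 time ended the call.

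Both cold-inducible RNA-binding proteins were called, and both peaked in the light phase, when mice rest and body temperature is low. Cirbp stood at 93.6, 104, 77.2, 58.8 and 65.01 CPM at ZT4 and at 38.2, 26.1, 28.2, 43.9 and 36.02 CPM at ZT16, with no overlap. Its amplitude was 0.62 ± 0.069 (ZT5.0 ± 0.43 h, adjusted p = 4.33e-07), and that of Rbm3 was 0.37 ± 0.058 (ZT7.3 ± 0.61 h). Autophagy and lysosome genes were called in 16 of 28, beside 31.8% of all genes. Of these, 8 peaked from ZT4 to ZT8, which held 6.64% of all genes. Members of the autophagy machinery came close together, with Atg13 and Wipi1 at ZT4.5 and ZT4.5, the kinase Ulk1 at ZT4.8, the cargo receptor Sqstm1 at ZT5.6, Map1lc3b at ZT6.3 and Atg14 at ZT7.1. The changes were small, and Map1lc3b, which marks autophagosome membranes, read 193, 182, 184, 209 and 180.1 CPM at ZT8 and 132, 151, 145, 144 and 137 CPM at ZT20. These groups did not overlap, with an amplitude of 0.23 ± 0.029 and an adjusted p of 8.48e-06. Tfeb, the master regulator of lysosome genes, peaked later at ZT13.7. Without the mice of 1 time, Sqstm1 (adjusted p = 0.0621 without ZT4) lost the call.

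Cytosolic ribosomal proteins were mostly not called (10 of 77, beside 31.8% of all genes). The 10 that were, among them Rpl3 (ZT7.0, 0.17) and Rpl17 (ZT8.5, 0.16), peaked between ZT5.4 and ZT9.7. Of these, 5 peaked from ZT4 to ZT8 (6.64% of all genes) and 5 from ZT8 to ZT12 (6.17%). The count of 10 moved with single libraries, from 4 without CIA ZT8 replicate 3 to 22 without CIA ZT12 replicate 2, and was 20 by DESeq2. It was 5 or 6 without CIA ZT4 replicate 4, CIA ZT8 replicate 4, CIA ZT12 replicate 1 or CIA ZT12 replicate 4, and 2 without the ZT8 mice. The call was lost in the absence of 1 time point for Rpl17 (adjusted p = 0.103 without ZT8).

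From ZT8 to ZT12, the end of the light phase, clock outputs and genes of mature epithelium peaked. Ciart (gene 229599, chromosome 3, 95878500 to 95882257) and Dbp (gene 13170, chromosome 7, 45705100 to 45710203) led the window with amplitudes of 3.02 ± 0.22 and 2.78 ± 0.18, followed, where the mean reached 10 CPM, by Cyp2d12, Tef (1.69 ± 0.10) and Nr1d2 (1.63 ± 0.12). Dbp read 100.4, 77.3, 67.5, 149 and 135 CPM at ZT12 and 2.92, 5.26, 3.33, 3.01 and 2.42 CPM at ZT0, with no overlap and an adjusted p of 5.52e-12. Cyp2d12, a cytochrome P450, had 1.85 ± 0.47 (ZT8.6 ± 0.97 h, adjusted p = 0.0089). Its relatives Cyp2d9 (1.56 ± 0.29, ZT8.7 ± 0.71 h) and Cyp2d34 (0.94 ± 0.17, ZT7.7 ± 0.68 h) had peaks within 1 h of it, but the 3 genes belong to 1 family of close copies and their reads may be shared. The drug efflux pump Abcb1a (0.51 ± 0.070, ZT9.0 ± 0.52 h) and the xenobiotic receptors Nr1i2 (ZT8.3) and Nr1i3 (ZT9.5) were in the same window, which held 6.17% of all genes. Genes of xenobiotic metabolism were called in 15 of 33, beside 31.8% of all genes, and 8 peaked there. Without the ZT20 mice, 9 of that list were called. Leaving out 1 time ended the call of Cyp2d12 (adjusted p = 0.122 without ZT20).

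Genes of salt and water absorption peaked together before lights off. Ion and water transport genes were called in 15 of 28, beside 31.8% of all genes. Of these, 11 peaked from ZT8 to ZT12 (6.17% of all genes) and 3 from ZT12 to ZT16 (3.65%), with a mean peak of ZT10.6. They covered sodium and proton exchange (Slc9a2 ZT8.7), chloride and bicarbonate exchange (Slc26a3 ZT11.1 ± 0.79 h), a subunit of the basolateral sodium pump (Atp1b1 ZT11.7 ± 0.58 h) and a chloride channel (Clcn2 ZT11.1 ± 0.64 h). The mineralocorticoid receptor Nr3c2, through which aldosterone acts on this tissue, peaked at ZT8.8 ± 0.67 h with 0.40 ± 0.070, and the epithelial sodium channel subunit Scnn1g, with a mean of 2.14 CPM, at ZT10.0 ± 1.1 h with 1.85 ± 0.53. Slc26a3, the main chloride absorber of the colon, stood at 2091, 1191, 2161, 2009 and 2016 CPM at ZT12 and at 750.3, 835, 1371, 569 and 789 CPM at ZT0. The groups overlapped only through CIA ZT12 replicate 2 and CIA ZT0 replicate 3. Its amplitude was 0.55 ± 0.11 (adjusted p = 0.00185). Scnn1g scattered more, at 5.37, 1.38, 5.78, 11.5 and 15.3 CPM at ZT12 and 0.0806, 0.678, 1.08, 0.0622 and 0 CPM at ZT0, though the lowest at ZT12 still exceeded the highest at ZT0. At ZT0, ZT4, ZT8 and ZT16 the mouse highest in Scnn1g was also highest in Slc37a2 and lowest in Hkdc1, described below. They were CIA ZT0 replicate 3, CIA ZT4 replicate 2, CIA ZT8 replicate 4 and CIA ZT16 replicate 5. No single mouse did so at ZT12 or ZT20. Whether the fitted rhythms of these genes follow this shared spread between mice was not tested. Without the ZT12 mice 6 genes of the list were called. A call was not reached once 1 time was removed for Slc9a2 (adjusted p = 0.11 without ZT8), Slc26a3 (adjusted p = 0.0656 without ZT12) and Scnn1g (adjusted p = 0.308 without ZT12).

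Other colonocyte genes had shallower rhythms around lights off. Colonocyte markers were called in 10 of 20, beside 31.8% of all genes. Of these, 6 peaked from ZT8 to ZT12 and 4 from ZT12 to ZT16. Among them were the adhesion molecule Epcam (ZT8.9, 0.19), the epithelial regulator Hnf4a (ZT11.9, 0.24), the cadherin Cdh17 (ZT13.9, 0.19) and the microvillus protein Vil1 (ZT14.1, 0.27). Without any one of CIA ZT0 replicates 1 and 4 and CIA ZT12 replicates 1 and 3, 6 were called, and without the ZT0 mice 4. Tight junction genes were called in 17 of 30, beside 31.8% of all genes, and 8 peaked from ZT8 to ZT12, which held 6.17%. Tjp1 (ZT10.0 ± 0.58 h, 0.25 ± 0.038), the scaffold ZO-1, and Mpp5 (ZT10.5 ± 0.64 h, 0.26 ± 0.043) were the clearest. Occludin (Ocln, ZT5.9) and Cldn1 (ZT7.6) preceded them, and Cldn8 stood on the other side of the day. Without the ZT20 mice 9 and without the ZT0 mice 10 tight junction genes were called. The peptide transporter Slc15a1 (1.17 ± 0.21, ZT9.2 ± 0.68 h) and the antibody receptor Pigr (0.27 ± 0.065, ZT9.7 ± 0.92 h), which carries IgA into the lumen, also peaked in this window. For Hnf4a (adjusted p = 0.134 without ZT0), Cdh17 (adjusted p = 0.128 without ZT16), Ocln (adjusted p = 0.0574 without ZT8), Cldn1 (adjusted p = 0.2 without ZT20) and Pigr (adjusted p = 0.0513 without ZT12), removal of 1 time ended the call.

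Interferon-stimulated genes were called in 20 of 36, beside 31.8% of all genes, with a mean peak of ZT9.5. Of these, 13 peaked from ZT8 to ZT12, which held 6.17% of all genes. Ifit3, an antiviral protein, stood at 18.4, 24.9, 19.7, 19.1 and 14.9 CPM at ZT12 and at 5.34, 9.45, 7.44, 8.86 and 10.9 CPM at ZT0. All ZT12 mice exceeded all ZT0 mice, with means of 19.4 ± 3.61 CPM at ZT12 and 8.39 ± 2.10 CPM at ZT0 (SD, n = 5), an amplitude of 0.57 ± 0.10 and an adjusted p of 0.000204. Ifit3b (ZT9.5), a near copy whose reads may be shared, Zbp1 (ZT9.5 ± 0.75 h, 0.67 ± 0.13), Herc6 (ZT9.9) and Oasl2 (ZT10.6) peaked nearby, while Irf7 (ZT20.8) and Bst2 (ZT19.3) peaked in the dark phase. The list gave 12 calls without the ZT0 mice, 11 without the ZT12 mice and 9 without the ZT20 mice. The Ifit3 promoter (chr19:34583279-34583578, plus strand) is shown because it holds 3 copies of the interferon response element core GAAANNGAA (N, any base), all read on the opposite strand here.
Ifit3: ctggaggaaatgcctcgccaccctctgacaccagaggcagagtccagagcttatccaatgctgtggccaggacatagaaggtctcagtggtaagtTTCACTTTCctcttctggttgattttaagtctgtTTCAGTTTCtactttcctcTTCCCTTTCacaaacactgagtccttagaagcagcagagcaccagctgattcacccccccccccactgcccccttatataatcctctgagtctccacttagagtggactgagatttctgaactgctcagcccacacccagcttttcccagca
This core stood in 10 of 17 promoters of called members of the list, in 8.17% of promoters of called genes with a peak from ZT8 to ZT12 and in 8.56% of all promoters in the table. Without the mice of 1 time, Oasl2 (adjusted p = 0.232 without ZT0), Irf7 (adjusted p = 0.151 without ZT20) and Bst2 (adjusted p = 0.285 without ZT20) lost the call.

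From ZT12 to ZT16, the first hours of darkness and feeding, the 645 peaks were mostly shallow (median amplitude 0.18), and clock genes stood out. Per2 (gene 18627, chromosome 1, 91415977 to 91459351) led with 1.82 ± 0.087 (ZT14.3 ± 0.18 h) and the smallest adjusted p among the genes named here, 9.50e-14. It read 145, 163, 149, 148 and 202 CPM at ZT16 and 13.2, 13.02, 28.9, 16.8 and 19.8 CPM at ZT4, with no overlap. Usp2, a deubiquitinase that acts on clock proteins, followed with 1.13 ± 0.084 (ZT13.9 ± 0.28 h), at 110.0, 86.9, 100.5, 128 and 148 CPM at ZT12 and 20.8, 30.8, 23.7, 28.3 and 32.1 CPM at ZT0. Upp1, which breaks down uridine (1.03 ± 0.18, ZT12.1 ± 0.69 h), Hlf (1.02 ± 0.15) and Kyat1, a kynurenine aminotransferase (0.95 ± 0.23, ZT13.3 ± 0.92 h), were the next largest where the mean reached 10 CPM. The call was lost in the absence of 1 time point for Upp1 (adjusted p = 0.0561 without ZT12) and Kyat1 (adjusted p = 0.0672 without ZT12).

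Hypoxia response genes centred on this window, with 14 of 18 called, beside 31.8% of all genes, and a mean peak of ZT13.2. Hif1a, the oxygen-regulated factor itself (ZT12.3 ± 0.68 h, 0.51 ± 0.091), and Bnip3 (ZT12.4 ± 0.65 h, 0.50 ± 0.086) peaked near lights off, Vegfa, the vessel growth factor (ZT14.9 ± 0.54 h, 0.45 ± 0.064), later, and the collagen hydroxylase P4ha1 (ZT17.6 ± 0.53 h, 0.46 ± 0.065) in the next window. P4ha1 stood at 60.7, 107, 79.5, 69.8 and 78.5 CPM at ZT16 and at 38.3, 38.2, 48.3, 43.4 and 39.6 CPM at ZT4, with no overlap (adjusted p = 7.66e-06). Pdk1 (ZT7.0) and Kdm3a (ZT7.8), also in the list, peaked in the light phase. Glycolysis genes were called in 12 of 18, beside 31.8% of all genes. Of these, 5 peaked from ZT12 to ZT16, which held 3.65% of all genes, and 5 from ZT16 to ZT20, which held 6.06%. Among them were Tpi1 (ZT16.0), Pgk1 (ZT16.6), Ldha (ZT17.0) and Gapdh (ZT18.5), with amplitudes of at most 0.36 in the list. Of the nuclear-encoded respiratory chain, 6 of 43 were called, beside 31.8% of all genes. Cycs, cytochrome c, was the clearest (ZT17.0 ± 0.54 h, 0.29 ± 0.041). Leaving out 1 time ended the call of Kdm3a (adjusted p = 0.133 without ZT20) and Gapdh (adjusted p = 0.0744 without ZT16).

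**Figure D3:**
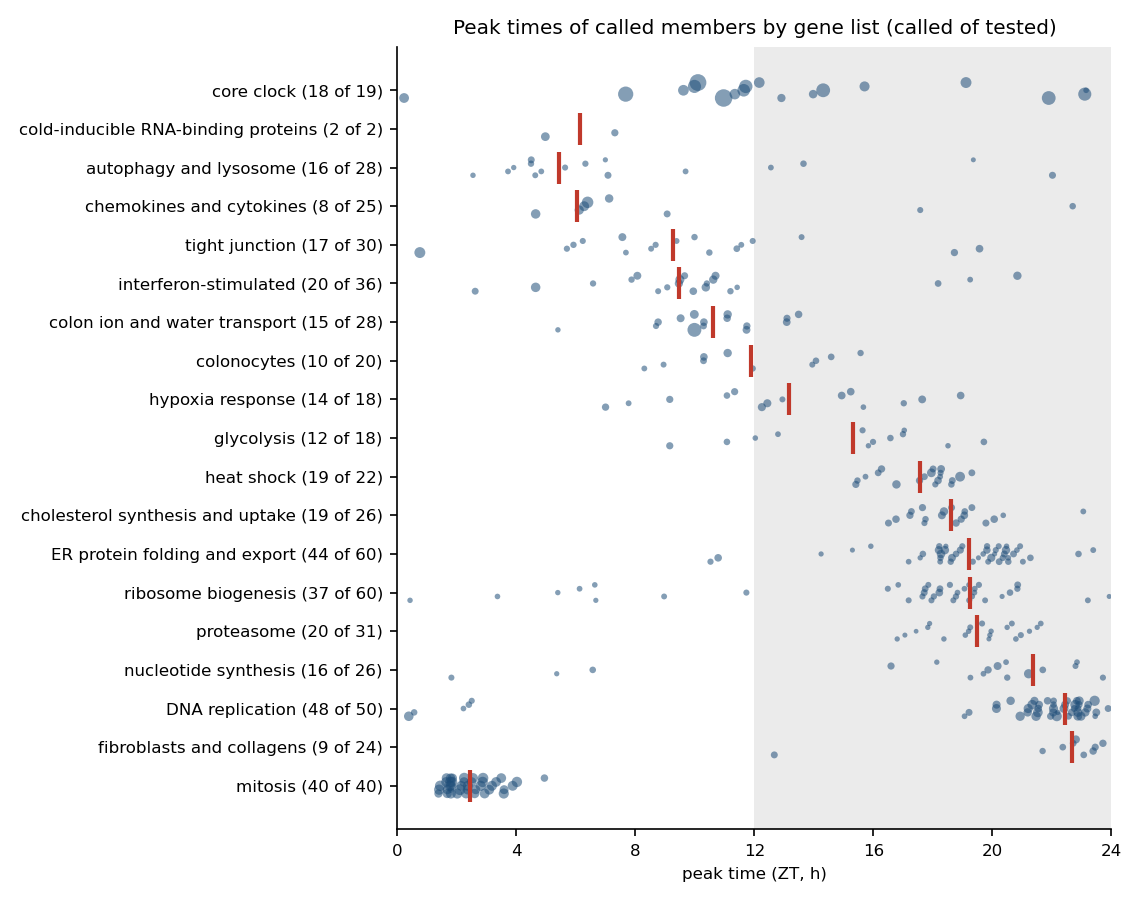
Peak times (horizontal axis, ZT hours) of the called members of 19 gene lists (rows, with the number called of the number tested), 1 point per gene with its area growing with amplitude, a red bar at the circular mean of each list but the core clock, and lights off shaded. Heat shock, proteasome, replication and mitosis members lie close together between ZT15.4 and ZT4.9, and the clock spans the day.

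From ZT16 to ZT20, the middle of the dark phase, genes that assemble ribosomes and that fold and degrade proteins peaked, some of them in the next window. Heat shock genes were called in 19 of 22, beside 31.8% of all genes. Of these, 16 peaked in this window, which held 6.06% of all genes. The first to peak were Hspa8 (ZT15.4), Dnajb1 (ZT15.5), Bag3 (ZT15.7) and Dnaja1 (ZT16.2), and Stip1 (ZT18.2 ± 0.49 h, 0.42 ± 0.054), Hsp90aa1 (ZT18.3), Hspd1 (ZT18.7) and Hsph1 (ZT18.9 ± 0.58 h, 0.83 ± 0.13) came later. Hsf1, the factor that drives these genes, peaked at ZT18.1. These chaperones stood opposite the cold-inducible pair, whose peaks fell near ZT5 and ZT7. Hspa1a, the inducible HSP70, read 19.9, 43.9, 21.4, 39.3 and 26.9 CPM at ZT20, 13.2, 28.4, 35.7, 19.5 and 29.6 CPM at ZT16 and 12.5, 9.32, 14.5, 17.9 and 12.1 CPM at ZT4. All ZT20 mice exceeded all ZT4 mice, whereas 1 of the 5 mice at ZT16 lay among them, and the amplitude was 0.62 ± 0.14 (ZT18.0 ± 0.83 h, adjusted p = 0.000676). Its near copy Hspa1b peaked at ZT16.8, and their reads may be shared. The promoter of Hspa1a (chr17:34972107-34972406, minus strand) is shown for its heat shock element pair GAANNTTC.
Hspa1a: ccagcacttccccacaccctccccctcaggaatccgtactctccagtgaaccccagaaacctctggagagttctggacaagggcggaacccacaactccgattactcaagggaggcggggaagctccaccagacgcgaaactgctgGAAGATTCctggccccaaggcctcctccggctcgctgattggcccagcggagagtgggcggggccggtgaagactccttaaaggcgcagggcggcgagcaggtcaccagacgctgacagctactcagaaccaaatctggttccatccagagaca
This pair stood in 10 of 21 promoters of called heat shock members and in 7.86% of all promoters in the table. A call was not reached once 1 time was removed for Dnajb1 (adjusted p = 0.103 without ZT16).

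Protein folding and export in the endoplasmic reticulum (ER) was the largest such group, with 44 of 60 called, beside 31.8% of all genes. Of these, 22 peaked from ZT16 to ZT20 (6.06% of all genes) and 17 from ZT20 to ZT24 (5.99%). Chaperones led, with Hyou1 (ZT18.3 ± 0.5 h, 0.58 ± 0.075), Hspa5 (ZT18.4 ± 0.54 h, 0.57 ± 0.081), Manf (ZT18.6) and Hsp90b1 (ZT18.9), and disulphide isomerases and the translocon followed, with Pdia6 (ZT20.5 ± 0.49 h, 0.55 ± 0.070), Sec61a1 (ZT20.2) and Ssr1 (ZT20.2 ± 0.49 h, 0.30 ± 0.038). Hspa5, the ER chaperone BiP, stood at 733, 649, 746, 747 and 690.2 CPM at ZT20 and at 419.5, 397, 386, 223 and 257 CPM at ZT8, with no overlap and an adjusted p of 1.76e-05. Xbp1 peaked with the chaperones (ZT18.2, 0.23). Herpud1 (ZT10.8 ± 0.51 h, 0.42 ± 0.057) and Dnajb9 (ZT10.5), which serve in the removal of misfolded proteins, peaked before lights off instead. The unfolded protein response element core TGACGTGG stood in 2 of 38 promoters of called members and in 0.676% of all promoters in the table. For Sec61a1 (adjusted p = 0.0543 without ZT20), Xbp1 (adjusted p = 0.0606 without ZT16) and Dnajb9 (adjusted p = 0.132 without ZT12), removal of 1 time ended the call.

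Ribosome assembly factors were called in 37 of 60, beside 31.8% of all genes, with 23 peaks in this window and a median amplitude of 0.19. The clearest were Nop10 (ZT20.9 ± 0.39 h, 0.31 ± 0.032, adjusted p = 3.60e-07), Rrp12 (ZT18.2 ± 0.49 h, 0.44 ± 0.056) and Nolc1 (ZT17.7 ± 0.53 h, 0.32 ± 0.045), and 8 of the 37 called members peaked outside the dark phase. Nop10 read 42.3, 42.95, 42.6, 46.3 and 38.97 CPM at ZT20 and 30.2, 31.5, 30.002, 26.3 and 25.4 CPM at ZT8, so that a small change still left no overlap. Proteasome subunits were called in 20 of 31, beside 31.8% of all genes. All 20 peaked from ZT16 to ZT24, at amplitudes of at most 0.21, as in Psmd14 (ZT21.0 ± 0.59 h, 0.21 ± 0.032) and Psmd1 (ZT19.7 ± 0.57 h, 0.20 ± 0.030). Without the ZT20 mice 22 ribosome assembly genes and 9 proteasome genes were called.

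Cholesterol synthesis and uptake genes peaked in the same hours, with 19 of 26 called, beside 31.8% of all genes. Of these, 16 peaked from ZT16 to ZT20, and the median amplitude of the called members was 0.34. Members described here ran from Msmo1 (ZT16.8, 0.41), a sterol oxidase, over Hmgcs1 (ZT17.7), Sqle (ZT18.3 ± 0.66 h, 0.48 ± 0.082), Pmvk (ZT19.1 ± 0.55 h, 0.44 ± 0.063) to the transcription factor Srebf1 (ZT19.3 ± 0.6 h, 0.32 ± 0.050). Sqle, squalene epoxidase, stood at 159, 157, 118, 119.9 and 165 CPM at ZT20 and at 115, 112, 85.2, 86.6 and 96.7 CPM at ZT8, with every ZT20 mouse above every ZT8 mouse (adjusted p = 0.000108). Without the ZT4 mice 12 and without the ZT16 mice 11 genes of the list were called. Without the mice of 1 time, Hmgcs1 (adjusted p = 0.179 without ZT16) lost the call.

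By amplitude, Cry1 (gene 12952, chromosome 10, 85131700 to 85185054) led the window with 1.07 ± 0.11 (ZT19.1 ± 0.4 h, adjusted p = 4.92e-07). It read 77.5, 65.5, 59.98, 57.5 and 67.9 CPM at ZT20 and 20.5, 18.4, 14.6, 8.65 and 16.2 CPM at ZT8, without overlap. Hkdc1, a hexokinase relative, was second where the mean reached 10 CPM, at 0.99 ± 0.33 (adjusted p = 0.0473), but its mice at ZT20 (18.8, 17.2, 62.9, 56.9 and 36.95 CPM) overlapped those at ZT8 (30.01, 20.6, 6.37, 2.36 and 19.3 CPM). Its call held in only 9 of 30 runs without 1 library, with an adjusted p of up to 0.107 without CIA ZT20 replicate 3. Fosb (0.98 ± 0.25, ZT18.1 ± 0.97 h), an activity-induced AP-1 subunit, Rfx2 (0.92 ± 0.18, ZT18.1 ± 0.76 h), a transcription factor, and Hsph1 were next. Immediate early genes as a list were called in 15 of 29, beside 31.8% of all genes, and 7 were called without the ZT16 mice. They peaked at many hours, from Klf6 (ZT5.5) to Fos (ZT15.1) and Ier5 (ZT22.2). The call of Hkdc1 was lost in the absence of any 1 of ZT0, ZT4, ZT12, ZT16 and ZT20 (adjusted p of up to 0.248, without ZT20). The absence of 1 time point also ended the calls of Fosb (adjusted p = 0.122 without ZT16) and Fos (adjusted p = 0.183 without ZT16).

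From ZT20 to ZT24, the end of the dark phase, DNA replication genes peaked. The list was called in 48 of 50, beside 31.8% of all genes. Of these, 41 peaked in this window, which held 5.99% of all genes, 2 before it and 5 after lights on. Their mean peak was ZT22.4 and their median amplitude 0.47. The polymerase subunit Pold3 (ZT19.1) and cyclin E1 (Ccne1, ZT19.2) came first, then origin licensing with Orc1 (ZT20.1), Mcm4 (ZT20.1 ± 0.47 h, 0.50 ± 0.062), Mcm2 (ZT20.6), Mcm3 (ZT20.9), Cdc6 (ZT21.2) and the driver E2f1 (ZT21.3 ± 0.48 h, 0.78 ± 0.098). The clamp Pcna (ZT21.5), the polymerase subunit Pola1 (ZT22.7), the primase Prim2 (ZT23.2 ± 0.45 h, 0.49 ± 0.057) and the nucleotide reductase Rrm2 (ZT23.4) followed, and thymidine kinase Tk1 (ZT0.38 ± 0.45 h, 0.78 ± 0.091) came after lights on. Of the 48 called replication genes, 45 peaked before the earliest mitosis gene at ZT1.4, and the mean peaks of both lists lay 4.00 h apart. The exceptions were Rpa3 (ZT2.2), whose call was lost in 4 of 30 runs without 1 library (adjusted p of up to 0.0705 without CIA ZT4 replicate 4), Rnaseh2a (ZT2.4) and Gins4 (ZT2.5). Most neighbours in this order lie within 1 SE of each other. Leaving out any 1 of ZT0, ZT4, ZT12, ZT16 and ZT20 ended the call of Rpa3 (adjusted p of up to 0.108, without ZT12).

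**Figure D4:**
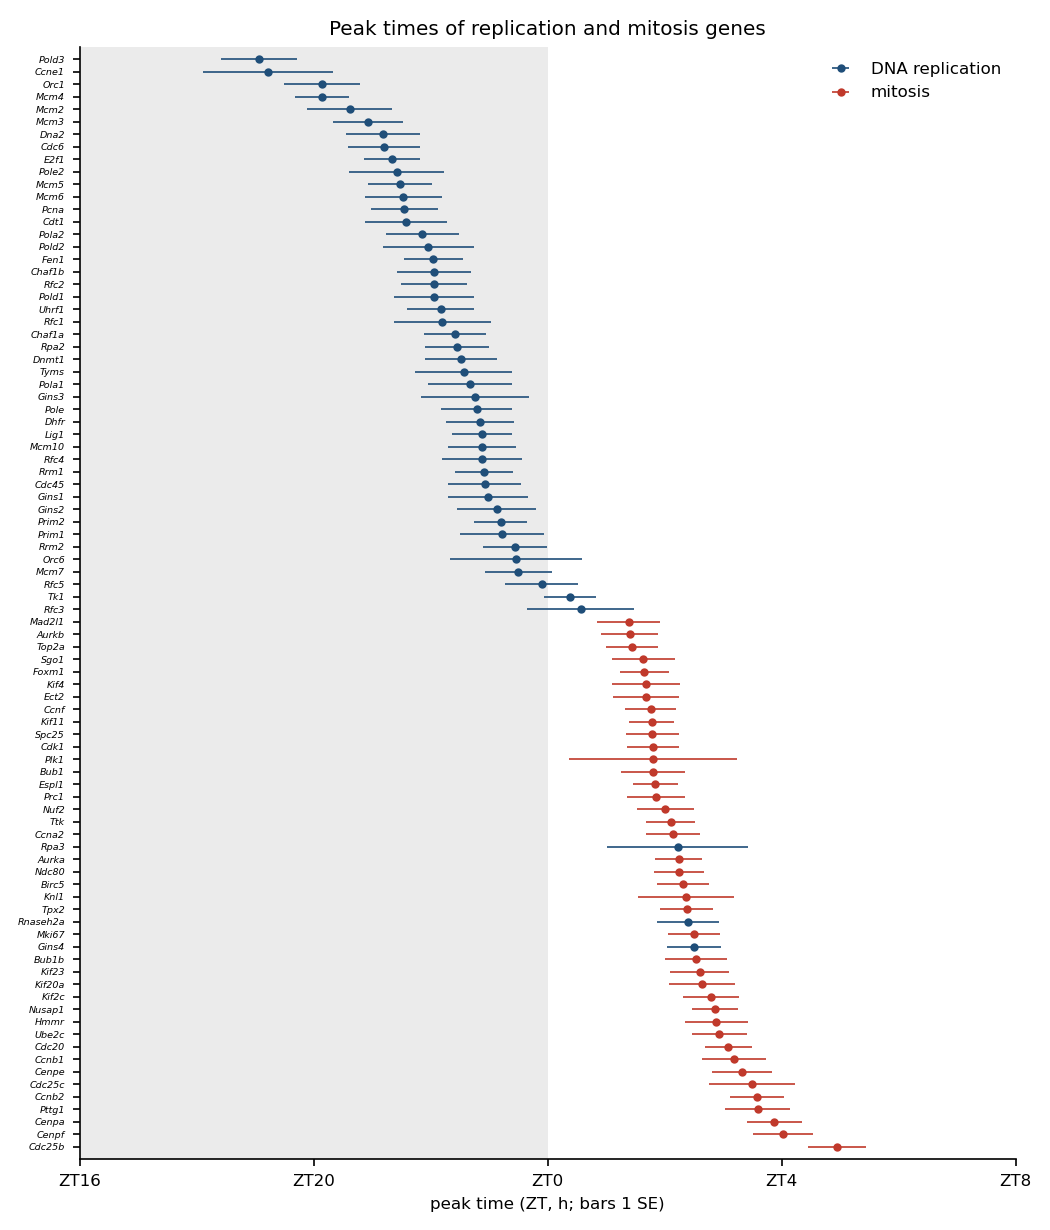
Fitted peak times (horizontal axis, ZT hours, from ZT16 through lights on to ZT8) of the 48 called DNA replication genes (blue) and the 40 called mitosis genes (red), in order of peak, with bars of 1 SE and lights off shaded. Replication peaks begin at ZT19.1 and lie mostly before lights on, and mitosis peaks begin at ZT1.4.

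Mcm6, a subunit of the replicative helicase, stood at 38.8, 57.1, 34.8, 47.3 and 31.9 CPM at ZT20 and at 29.2, 23.4, 17.9, 11.1 and 13.5 CPM at ZT8. The groups did not overlap, with means of 41.97 ± 10.2 CPM at ZT20 and 18.997 ± 7.37 CPM at ZT8 (SD, n = 5), an amplitude of 0.80 ± 0.14 and a peak at ZT21.5 ± 0.66 h (adjusted p = 0.00027). Its promoter (chr1:128359656-128359955, minus strand) is shown because it holds E2F letters at 3 places, TTTGGCGC at positions -110 and -47 and TTTCGCGC, read on the opposite strand and overlapping the first, at -106.
Mcm6: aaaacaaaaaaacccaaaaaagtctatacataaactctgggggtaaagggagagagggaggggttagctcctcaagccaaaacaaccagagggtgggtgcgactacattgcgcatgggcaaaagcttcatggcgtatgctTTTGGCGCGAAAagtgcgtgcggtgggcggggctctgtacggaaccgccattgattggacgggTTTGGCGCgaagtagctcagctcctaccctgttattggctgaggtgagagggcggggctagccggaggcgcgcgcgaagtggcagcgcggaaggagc
E2F letters, as TTTGGCGC or TTTCGCGC, stood in 12 of 48 promoters of called replication members (25%), in 1 of 36 of called mitosis members and in 0.813% of all promoters in the table. Nucleotide synthesis genes were called in 16 of 26, beside 31.8% of all genes. Of these, 8 peaked in this window, such as Mthfd2, of mitochondrial folate metabolism (ZT21.2 ± 0.59 h, 0.72 ± 0.11). Without the ZT20 mice 7 of that list were called, against 16 with all mice.

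The largest fitted amplitude of the window, 2.47 ± 0.81 for Reg3b (gene 18489, chromosome 6, 78370885 to 78373466), rested on few mice (adjusted p = 0.000249). Reg3b, an antibacterial lectin of the epithelium, stood at 0.330, 0.389, 341, 158 and 3.36 CPM at ZT20, 90.7, 6.98, 0, 8.14 and 106 CPM at ZT0 and 3.54, 2.31, 0.108, 0 and 0.303 CPM at ZT8. Only 4 of 30 mice exceeded 50 CPM, 2 at ZT20 and 2 at ZT0, and the next highest stood at 14.2 CPM, so high and low mice stood side by side at both times. The high mice at ZT20, replicates 3 and 4, were also highest in Hkdc1 (62.9 and 56.9 CPM) and lowest in Slc26a3 (503 and 402 CPM). Those at ZT0, replicates 1 and 5, were highest in Hkdc1 (57.8 and 44.3 CPM) but not lowest in Slc26a3. Reg3g had a similar fitted peak (1.24 ± 0.44, ZT21.8 ± 1.3 h), and limma-trend did not call it (adjusted p = 0.0582). Slc51a, a bile acid exporter (1.39 ± 0.53, ZT20.8 ± 1.5 h, adjusted p = 0.0256), lost its call without CIA ZT20 replicate 4 (adjusted p = 0.0726) or without CIA ZT20 replicate 3, and limma-trend did not call it (adjusted p = 0.0883). Spon2, a secreted matrix protein (1.32 ± 0.14, ZT22.9 ± 0.39 h, adjusted p = 2.04e-07), and E2f2, an E2F factor (1.24 ± 0.14, ZT23.3 ± 0.44 h, adjusted p = 3.00e-06), held in all 30 runs without 1 library. Removing any 1 of ZT12, ZT16 and ZT20 also ended the call of Slc51a (adjusted p of up to 0.222, without ZT20).

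Fibroblast and collagen genes were called in 9 of 24, beside 31.8% of all genes, and 8 of these peaked from ZT20 to ZT24, which held 5.99% of all genes. Among the 8 were Col1a1 (ZT23.4 ± 0.73 h), Col3a1 (ZT23.7 ± 0.84 h), Col5a1 (ZT23.1), Col6a2 (ZT22.7), Col6a3 (ZT22.8 ± 0.68 h), Col15a1 (ZT23.5 ± 0.91 h) and Pdpn (ZT21.7), while Rspo3, the Wnt amplifier, peaked at ZT12.7. Col1a1 stood at 203, 294, 261, 374 and 282 CPM at ZT0 and at 132, 173, 166, 178 and 121 CPM at ZT12, with no overlap, an amplitude of 0.40 ± 0.077 and an adjusted p of 0.000418. Smooth muscle markers, which belong to another stromal cell, summed to a median of 42787 CPM at ZT0 and 31285 CPM at ZT12, but were called in 0 of 26 by edgeR and limma-trend and in 1 by DESeq2, with 1 at an unadjusted p under 0.05 in edgeR. After adjustment for the smooth muscle score 11 fibroblast and collagen genes were called, without the ZT0 mice 3 and without the ZT12 mice 5. For Col3a1 (adjusted p = 0.0953 without ZT0), Col6a2 (adjusted p = 0.0828 without ZT0), Col15a1 (adjusted p = 0.0636 without ZT12), Pdpn (adjusted p = 0.0626 without ZT0) and Rspo3 (adjusted p = 0.229 without ZT12), removal of 1 time ended the call.

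**Figure D5:**
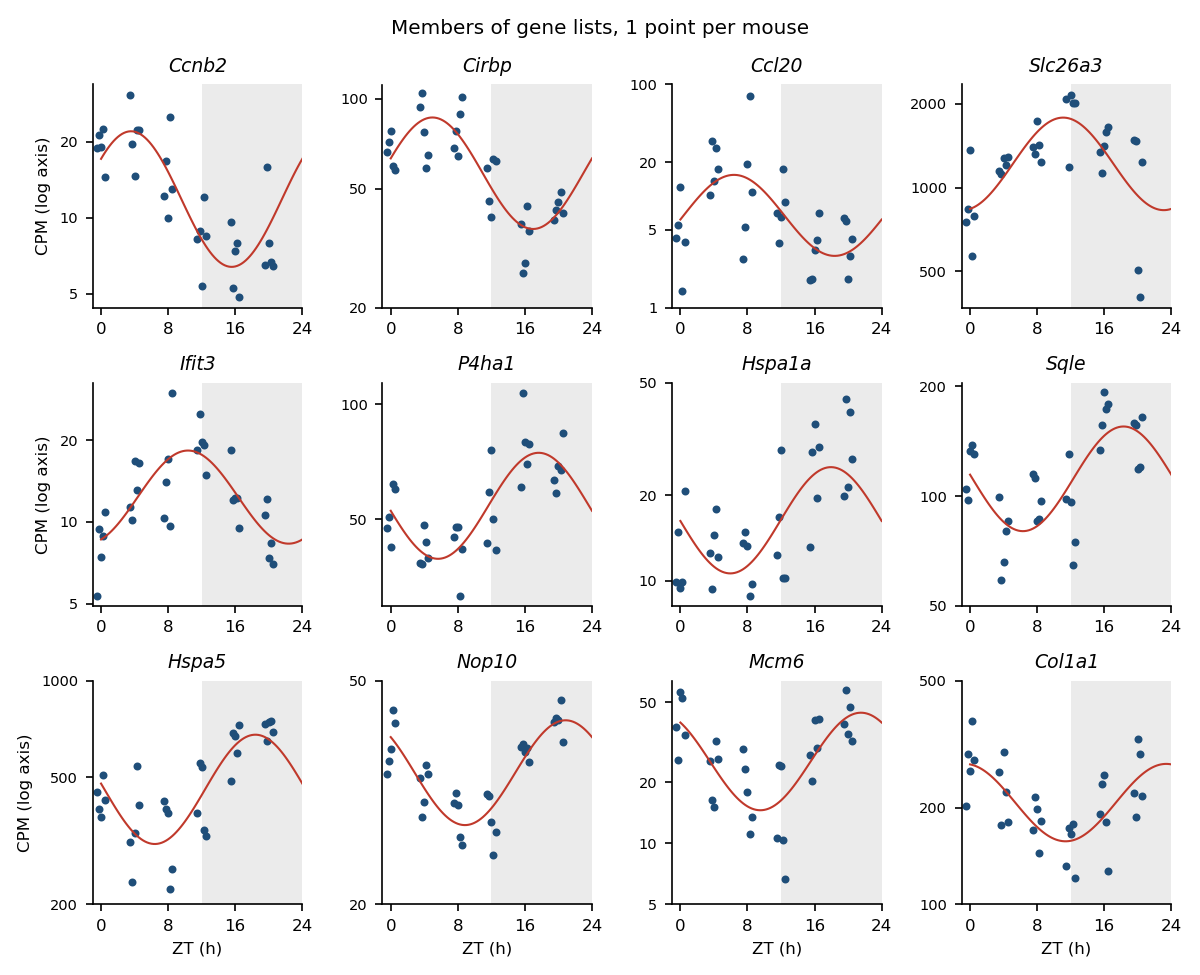
CPM (vertical axes, log scale) by ZT hour (horizontal axes) for 12 members of gene lists in the order of their roles in the text, 1 point per mouse and 5 mice per time, with the fitted 24 h curve in red and lights off shaded. Ccnb2 and Cirbp are high in the light phase, Hspa5, Sqle and Nop10 in the dark phase, and Ccl20 varies most between mice of one time point.

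Few or no markers of several cell types of the section were called, beside 31.8% of all genes. Enteric neuron markers were called in 0 of 24 and tuft cell markers in 0 of 13 by edgeR, limma-trend and DESeq2, with 0 and 1 at an unadjusted p under 0.05 in edgeR. Tuft cell markers gave 1 call without CIA ZT0 replicate 3 or without CIA ZT12 replicate 2. T and NK cell markers gave 1 of 20 (0 to 2 without 1 library), MHC class II genes 1 of 12 and mucus and goblet cell genes 3 of 20. Goblet cell markers still summed to different levels at some times, with 20599 to 26641 CPM at ZT12, 30799 to 36820 CPM at ZT16 and 28884 to 32907 CPM at ZT20, so that the ZT12 mice lay below those of both later times. Their median amplitude was 0.22, against 0.15 over all genes tested, and the sums were not tested. The 3 goblet genes were Agr2 (ZT21.6 ± 0.82 h, 0.70 ± 0.15), a disulphide isomerase needed for mucin folding that peaked with the ER genes, Best2 (ZT10.0) and Muc3, whose call held in 14 of 30 runs that left out 1 library (adjusted p of up to 0.0862 without CIA ZT12 replicate 1), and 6 were called without CIA ZT8 replicate 1 and 5 without CIA ZT0 replicate 3. Muc2, the main secreted mucin, was not called. Glial markers differed among themselves, with 5 of 12 called at peaks from Fabp7 (ZT0.56) and Erbb3 (ZT5.6 ± 0.54 h, 0.42 ± 0.060) to Gfap (ZT22.7 ± 0.8 h, 0.75 ± 0.16) and Kcna1 (ZT21.8 ± 0.58 h, 0.61 ± 0.093). Skeletal muscle markers gave 11 of 13 in edgeR and 0 by limma-trend and DESeq2, and without CIA ZT12 replicate 2, the library with 635 CPM of these markers, 1 was called in edgeR. Without the mice of 1 time, Agr2 (adjusted p = 0.0678 without ZT12) and Best2 (adjusted p = 0.261 without ZT12) lost the call.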

How the data were processed

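Whole mid-colon RNA of 30 CIA mice was read by the authors as stranded, paired-end mRNA libraries. The authors' steps, per the labels, were bcl2fastq 2.17.1.14 for demultiplexing, Trimmomatic 0.36 for trimming, STAR 2.5.3 for alignment (mm10, GRCm38) and Rsubread for counting per gene. The deposited values are raw counts per gene, and nothing upstream was run again. Low counts (1 to 20) were even in 74.6% of cases, high ones (1000 or more) in 50.5%, so runs on halved counts were added. Replicate numbers did not pair mice: deviations of the 75 same-numbered pairs correlated between -0.54 and 0.47 (median -0.031).

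Software was edgeR 4.0.16, limma 3.58.1 and DESeq2 1.42.0 under R 4.3.3. Genes were kept by filterByExpr with the 6 time groups (minimum count 10, minimum total 15) and scaled with edgeR's TMM. The quasi-likelihood F test (legacy form) had 2 degrees of freedom, with Benjamini-Hochberg adjustment over 17658 genes. Amplitudes and peaks came from least squares on log2 CPM (prior count 2), with delta-method SE.

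Genes named were the 5 of largest amplitude per window with a mean of at least 10 CPM (predicted genes left out), the core clock, and per list described, up to 4 called members of lowest adjusted p. Lists for cells that a section could also hold, such as skeletal muscle, were left out of that part after values were seen, and further members are named, and genes shown mouse by mouse chosen, with their values known. The 49 lists were written by hand, 1206 of 1208 entries matched the table, and windows, lists and tests were chosen with earlier results of these data known. RefSeq's GRCm38.p6 table named 25275 genes and gave promoters for 13182 of the genes tested. The cAMP response element TGACGTCA and the motifs named in the text were searched. Naïve libraries were not used here. Some members of the lists are not reported here by name. Alternatives were other tests, scaling and filters, covariates, thresholds and leaving out times or libraries. Labels do not say whether mice of a time point shared a litter or cage, and p-values measure the spread between these mice.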

Additional observations from a re-analysis of the deposited data

Results flagged for a closer look

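For the genes shown mouse by mouse, each of the 174 groups of 5 mice was searched for a mouse whose gap to its nearest neighbour exceeded 0.71 of the group's range on the log2 scale. Of these groups, 10 held such a value. Chance gives about 1 in 20 groups, so their number is close to what chance gives. Values of several genes in 1 mouse are not independent, and some of these genes were chosen with their values known. CIA ZT12 replicate 2, which also held the skeletal muscle transcripts, stood apart in 4 genes. It was high in Hkdc1 (32.6 CPM, next 9.61) and low in Slc26a3 (1191 CPM, next 2009), Slc37a2 (4.71 CPM, next 125) and Map1lc3b (152 CPM, next 178). CIA ZT4 replicate 4, the mouse whose clock hour was 3.4 h early, was low in Nr1d1 (54.9 CPM, next 161) and Fabp7 (0.369 CPM, next 0.846). CIA ZT16 replicate 1, with a clock hour 2.1 h early, was low in Arntl (9.94 CPM, next 21.2). The other mice were CIA ZT0 replicate 5, high in Cry1 (59.1 CPM, next 48.7), CIA ZT20 replicate 2, high in Ccnb2 (15.9 CPM, next 7.93), and CIA ZT0 replicate 3, high in Slc37a2 (375 CPM, next 12.7). What set these mice apart was not tested.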

How the results depend on the processing

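The count of called genes was 5610 by limma-trend, 6164 by DESeq2, 5610 with robust dispersion, 5623 with DESeq2's size factors, 5348 with no filter on low counts, 4980 when the mean had to reach 5 CPM and 5619 on halved counts. It was 6731 with the smooth muscle score and 5673 with the B cell score as a covariate, 3771 for any difference among the 6 times, and 4971 to 5815 when 1 library was left out. Of the genes called by edgeR, 5397 were also called by limma-trend. With a replicate block 5140 genes were called. At an adjusted p under 0.01, 3244 were called, by window from ZT0 to ZT4 onward 344, 691, 617, 353, 641 and 598. With an amplitude of at least 0.2, 3195 were called, with 704, 651, 260, 477 and 696 in the windows from ZT4 to ZT8 onward, and with an amplitude of at least 0.5, chosen after seeing the data, 850. Without ZT12, 3682 were called, with 343 from ZT0 to ZT4, 497 from ZT8 to ZT12, 401 from ZT12 to ZT16 and 404 from ZT20 to ZT24. Without ZT20, 3646 were called, with 685 from ZT4 to ZT8, 636 from ZT8 to ZT12, 694 from ZT16 to ZT20 and 626 from ZT20 to ZT24. Without ZT16, 698 peaked from ZT4 to ZT8 and 562 from ZT16 to ZT20, and without ZT0, 407 peaked from ZT12 to ZT16. By window, leaving out 1 library gave 505 to 655, 1016 to 1210, 860 to 1242, 540 to 702, 868 to 1145 and 831 to 1254. The 12 h component was called in 2 genes by DESeq2, in 1 without the 3 libraries that stood apart (chosen after seeing the data) and in 0 to 1 when 1 library was left out, the 1 without CIA ZT12 replicate 2. Without those 3 libraries the lists gave 39 mitosis, 47 replication, 17 clock, 44 ER, 19 heat shock, 17 cholesterol, 34 ribosome assembly, 17 proteasome, 14 ion transport and 21 interferon-stimulated calls, and the fitted rhythm of no named gene turned to the opposite phase in any run. Sampling every 4 h in 5 mice limits peak times to the SE given, and one cycle cannot show that a pattern recurs.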

Other observations

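Further lists held genes at scattered hours. Glucocorticoid-induced genes were called in 11 of 19, beside 31.8% of all genes. Among them were Tat, tyrosine aminotransferase (ZT7.9 ± 0.61 h, 0.94 ± 0.15), Mt1 (ZT8.9) and Klf9 (ZT9.0 ± 0.66 h, 0.43 ± 0.075) near the end of the light phase and Fkbp5 (ZT14.4) and Tsc22d3 (ZT16.5) in the dark phase. Amino acid transporters were called in 13 of 22, beside 31.8% of all genes, and fell on both sides of the day. Slc6a14 (ZT8.0) and Slc43a1 (ZT3.5) peaked in the light phase, and the large neutral and cationic amino acid carriers Slc7a5 (ZT19.5) and Slc7a1 (ZT20.6) and the glutamine carrier Slc38a1 (ZT21.7 ± 0.6 h, 0.46 ± 0.072) peaked late in the dark phase. Without the ZT12 mice 7 and without the ZT20 mice 8 of these carriers were called. Stem cell and Wnt target genes were called in 6 of 19, a share close to the 31.8% of all genes, among them Cd44 (ZT21.3 ± 0.79 h, 0.54 ± 0.11) and the Wnt inhibitor Notum (ZT22.4 ± 0.81 h, 0.91 ± 0.19), while Lgr5, the marker of crypt base stem cells, was not called, and 3 were called without the ZT20 mice. The call was lost in the absence of 1 time point for Fkbp5 (adjusted p = 0.127 without ZT12), Tsc22d3 (adjusted p = 0.0973 without ZT16), Slc6a14 (adjusted p = 0.0596 without ZT20) and Slc7a5 (adjusted p = 0.0847 without ZT20).

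Short-chain fatty acid and bile acid genes were called in 7 of 19, beside 31.8% of all genes, with the monocarboxylate carrier Slc16a3 (ZT15.3) and the receptor Ffar2 (ZT23.7 ± 0.99 h, 0.43 ± 0.11) at different times of day, and 4 were called without CIA ZT20 replicate 3 or 4. Enteroendocrine genes were called in 4 of 20, beside 31.8% of all genes. They included Nts, neurotensin (ZT21.6, 1.19 ± 0.43), which limma-trend did not call (adjusted p = 0.0674), and Tph1, the serotonin-synthesising enzyme (ZT20.1 ± 0.91 h, 0.52 ± 0.12). Without the ZT16 mice or without the ZT20 mice 2 of that list were called. MHC class I genes were called in 5 of 14, again beside 31.8%, the clearest being Psmb10 (ZT11.1 ± 0.7 h, 0.27 ± 0.048) and Tapbp (ZT10.3 ± 0.66 h, 0.18 ± 0.031), and 3 were called without any one of CIA ZT12 replicate 3, CIA ZT16 replicates 2 and 3 and CIA ZT20 replicates 3 and 4. Plasma cell and IgA genes were called in 4 of 24, beside 31.8% of all genes, namely Ccl28 (ZT7.1), Pigr (ZT9.7), Ccl25 (ZT17.6) and Xbp1 (ZT18.2). Neither Igha nor Jchain was among them, and Ccl25 had an adjusted p of 0.0594 without CIA ZT16 replicate 5. Endothelial genes were called in 2 of 16, Eng and Plvap, beside 31.8% of all genes. This count ran from 0 without CIA ZT20 replicate 4 to 6 without CIA ZT12 replicate 2. Leaving out 1 time ended the call of Ffar2 (adjusted p = 0.381 without ZT12), Tph1 (adjusted p = 0.0678 without ZT20) and Ccl25 (adjusted p = 0.127 without ZT20).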
